A study of Mus musculus with 6 samples.

Results

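The genes described here are 8 receptors grouped as Siglecs and other inhibitory receptors of myeloid cells, Cd33, Siglece, Siglec1, Sirpa, Pirb, Pilra, Lilrb4a and Cd300a, and 2 tyrosine phosphatases that such receptors recruit, Ptpn6 (SHP-1) and Ptpn11 (SHP-2). They were taken by symbol from a count table of 22192 genes, and all 10 were found in it and were abundant enough to test. The table holds polyadenylated RNA of RAW 264.7 cells, a macrophage-like line from BALB/c mice. In 3 libraries the medium of the cells held 200 µg/mL of ASPS-A1, a purified acidic polysaccharide of Acanthopanax senticosus leaves, for 24 h. The other 3 libraries are labelled control, with no further word on their medium, and no other agent or allele is named for either group. RAW 264.7 is an established line, not primary macrophages, and nothing in the labels says whether the 3 libraries of a group came from separate cultures, so p-values measure only the spread between these libraries.

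Most inhibitory receptors of this kind carry immunoreceptor tyrosine-based inhibitory motifs (ITIMs) in their cytoplasmic tails. When a receptor meets its ligand, Src-family kinases phosphorylate the motif, and the SH2 domains of Ptpn6, Ptpn11 or the lipid phosphatase Inpp5d (SHIP-1) dock there and dampen signals from activating receptors. The Siglecs read sialic acid on glycans, Sirpa reads the "don't eat me" protein Cd47, Pirb reads MHC class I, and Cd300a reads phospholipids exposed on dying cells. Not every Siglec is built this way, and Siglec1 (sialoadhesin) is a sialic acid-binding adhesion receptor of macrophages that has no ITIM. The protein sequences of these receptors were not analysed here, so whether mouse Cd33 carries an ITIM was not checked.

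Totals ran from 19989318 to 26137127 counts per library and were lower in all 3 ASPS-A1 libraries than in the controls. All 10 macrophage markers examined, among them Adgre1, Csf1r and Spi1, were present at 1 CPM or more (CPM, counts relative to the scaled total of the library), and their sum was 3346 to 3468 CPM with ASPS-A1 against 2499 to 2549 in control. The list did not move as one, since Itgam had 827 to 847 CPM against 469 to 481, whereas Mpeg1 had 127 to 134 against 230 to 253 and Csf1r 283 to 317 against 317 to 327. The 6 osteoclast markers summed to 425 to 479 CPM against 237 to 257, with Calcr at 0, and nearly all of the sum was Mmp9 (407 to 462 against 223 to 243). Dcstamp had 5.92 to 8.53 CPM against 8.09 to 10.6. The B cell gene Cd79b had 31.8 to 38.2 CPM against 30.1 to 32.4, and the 5 dendritic cell markers summed to 5.01 to 7.88 CPM against 5.19 to 5.71. The lists of T cells, NK cells, fibroblasts, epithelium and endothelium each summed to 0.924 CPM or less in every library. Of the 6 neutrophil markers, S100a9, Ly6g, Mpo and Elane were at 0, and the sum was under 1 CPM in every library (0.489 to 0.621 against 0.0774 to 0.248). The part of these shifts in the results was not tested, and in bulk RNA fewer cells of a state and less RNA per cell cannot be told apart.

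Start-site sequences are shown for the 3 receptors with a change of at least 2-fold whose symbol matched a RefSeq (GRCm38.p6) promoter entry. This choice was made after their values were seen. Lilrb4a also changed by that much, but its symbol matched no entry. Cd33 fell, and Siglece and Pilra rose. Each stretch lies within the 250 bases before the start that RefSeq lists, runs 5′ to 3′ on the gene's strand, and leaves out bases that GENCODE M21 annotates as exon. Capitals mark matches on either strand to GAGGAA, the core recognised by the macrophage lineage factor PU.1, to TGANTCA (AP-1) or to TTGCNNAA (C/EBP).
Cd33, chr7:43533172-43533364, minus strand: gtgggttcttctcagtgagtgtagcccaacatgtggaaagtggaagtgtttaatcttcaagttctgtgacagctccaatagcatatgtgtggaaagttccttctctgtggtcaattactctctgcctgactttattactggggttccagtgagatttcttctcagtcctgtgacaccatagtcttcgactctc
Siglece, chr7:43660162-43660411, minus strand: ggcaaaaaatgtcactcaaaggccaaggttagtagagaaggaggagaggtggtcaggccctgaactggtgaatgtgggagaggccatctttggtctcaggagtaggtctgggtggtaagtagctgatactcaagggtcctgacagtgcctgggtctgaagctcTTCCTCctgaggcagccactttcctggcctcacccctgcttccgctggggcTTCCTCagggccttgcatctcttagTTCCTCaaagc
Pilra, chr5:137836282-137836528, minus strand: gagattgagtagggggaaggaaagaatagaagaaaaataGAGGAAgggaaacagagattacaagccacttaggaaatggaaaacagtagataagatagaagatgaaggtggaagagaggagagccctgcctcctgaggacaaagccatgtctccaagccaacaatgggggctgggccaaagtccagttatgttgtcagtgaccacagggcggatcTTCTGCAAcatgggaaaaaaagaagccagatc

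The Siglece stretch held 3 PU.1 cores and the Pilra stretch 1 PU.1 core and 1 C/EBP match. The 193 bases shown for Cd33 held none of the 3 motifs. The whole 250-base window of Cd33 held 1 PU.1 core, in its upstream part, which belongs to an annotated Cd33 exon and is not shown. That window lies inside the Cd33 gene of GENCODE M21, where another transcript begins upstream at position 43544428, so it is not comparable with the windows of Siglece and Pilra at their gene ends. None of these windows held the AP-1 sequence. Over all 32851 promoters of 250 bases in the same source, 23.3% held a PU.1 core, 6.75% the AP-1 sequence and 9.56% the C/EBP sequence, and no match of different motifs overlapped another in the stretches shown. A match describes letters and is not a measured binding site. RefSeq windows were also matched for Pirb, Cd300a, Ptpn6 and Ptpn11, which held 3, 1, 0 and 1 PU.1 cores. Sirpa, Siglec1 and Lilrb4a were not matched.

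The comparison asks how the transcripts of inhibitory receptors and their phosphatases differed between cells given the polysaccharide and control cells. The receptors moved apart from each other. Pilra, Siglece and Lilrb4a rose by 2.66-fold, 2.19-fold and 2.09-fold, Cd33 fell 3.29-fold, and both phosphatases fell. In all, of these 10 genes 4 rose and 4 fell, and 2 missed the threshold (edgeR quasi-likelihood, adjusted p under 0.05 over 11686 genes). Among those that rose is Sirpa, whose call ended under 6 alternatives, which leave 3 risen. Across all genes tested 65.3% were called, 32.4% higher and 33.0% lower, so the number of calls among these 10 was close to that background. The groups did not overlap for 7 of the 10, against 68.5% of all genes. By 2-fold or more, 3 of the 10 rose and 1 fell, where 3.69% of all genes were called higher and 5.74% lower by that much. The genes were chosen with earlier results of these data known, so nothing particular to them is read from these counts. The median log2 fold change of the 10 was −0.21, against −0.021 over all genes tested.

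**Figure D1:**
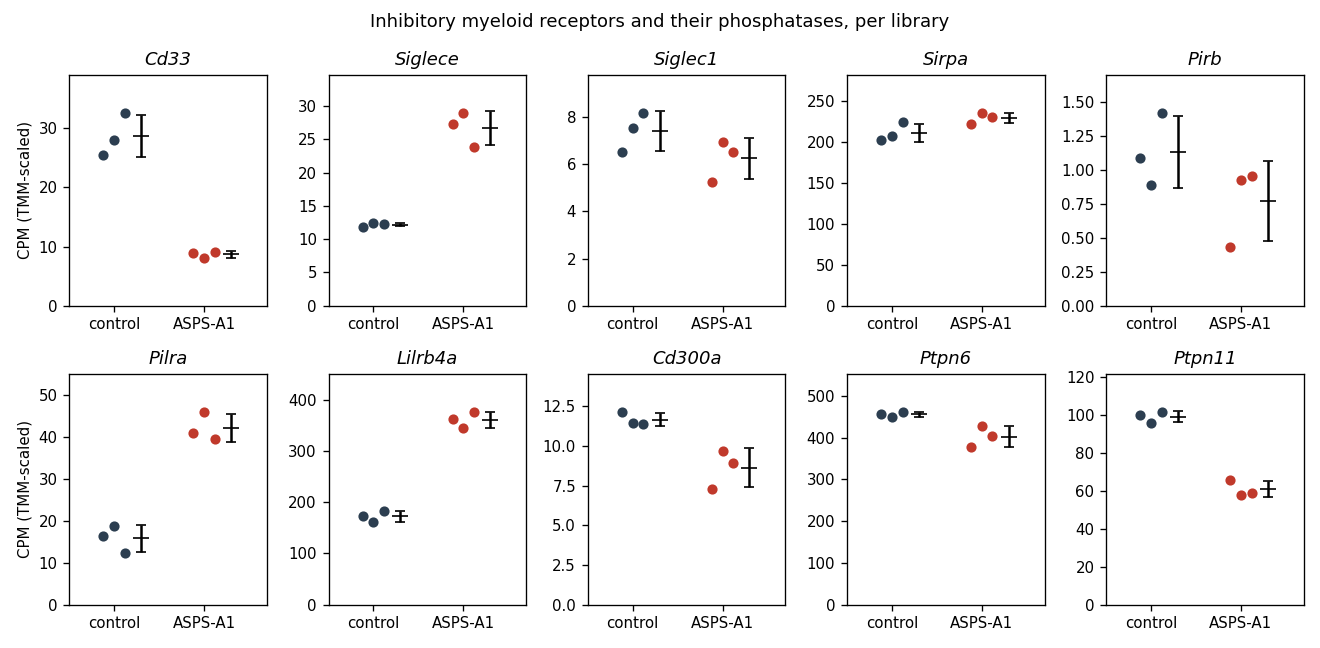
Normalised read count (CPM, vertical axes from 0, each gene on its own scale) of the 8 receptors and 2 phosphatases in the 3 control libraries (dark points) and the 3 ASPS-A1 libraries (red points), with mean and SD as a bar beside each group. Cd33, Siglece, Pilra, Lilrb4a and Ptpn11 show wide gaps between the groups, whereas the groups overlap for Siglec1, Sirpa and Pirb.

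The Siglecs went different ways. Cd33, a sialic acid-binding receptor of myeloid cells (chr7:43524216-43544428, minus strand, GENCODE M21 on GRCm38), had 25.6, 28.0 and 32.5 CPM in the control libraries and 8.97, 8.04 and 9.11 CPM with ASPS-A1. Every ASPS-A1 library lay below every control library. The log2 fold change was −1.72 ± 0.11 (SE, edgeR adjusted p = 6.02e-19), and it stayed between −1.80 and −1.62 when any 1 library was left out. Siglece (chr7:43651070-43660161, minus strand), an ITIM-bearing receptor of mouse neutrophils and macrophages, lies on the same chromosome and moved in the other direction. It had 11.9, 12.4 and 12.2 CPM in control and 27.4, 28.9 and 23.8 CPM with ASPS-A1, with no overlap. Its log2 fold change was 1.13 ± 0.098 (SE, edgeR adjusted p = 4.45e-14).

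Siglec1 (chr2:131069220-131086765, minus strand), which is known as an interferon-inducible adhesion receptor, had low levels in both groups. Its values were 6.49, 7.55 and 8.15 CPM in control and 5.25, 6.96 and 6.52 CPM with ASPS-A1, and the groups overlapped. The log2 fold change of −0.25 ± 0.16 (SE) did not pass the test (edgeR adjusted p = 0.155). Scaling to library totals alone gave −0.45 (adjusted p = 0.0117), and offsets that remove trends on transcript length and GC content gave 0.068 (adjusted p = 0.723). Other Siglecs were near the limit of counting. Siglecg had no count in any library, Siglecf had 15 counts over the ASPS-A1 libraries and 43 over the controls, and Siglech had 16 and 29.

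Lilrb4a and Sirpa were the most abundant receptors. Lilrb4a (chr10:51490956-51496611, plus strand), the ITIM-bearing member of the gp49 pair, had 174, 162 and 183 CPM in control and 364, 345 and 377 CPM with ASPS-A1. The lowest ASPS-A1 library lay far above the highest control library, with a log2 fold change of 1.06 ± 0.050 (SE, edgeR adjusted p = 3.27e-23). Its relative Lilrb4b, the gp49 member without an ITIM, rose from 48.7 ± 4.16 (SD, n = 3) to 161 ± 7.48 CPM (log2 fold change 1.73). Of the 75-base windows in the longest Lilrb4a transcript, 35.8% also occur in transcripts of other annotated genes, with the largest share, 27.4%, in Gm49339. Of its annotated exon length, 35.9% overlaps Gm40645 and Gm49339, and how such reads were assigned is not given. Pooling the counts of Lilrb4a and Lilrb4b gave a log2 fold change of 1.24, an alternative chosen after seeing the data. That pooling does not resolve the overlap with Gm40645 and Gm49339.

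Sirpa (chr2:129592835-129632228, plus strand), the receptor for Cd47, hardly differed. Its values were 202, 207 and 223 CPM in control and 222, 235 and 230 CPM with ASPS-A1, with overlap. A log2 fold change of 0.12 ± 0.048 (SE) just passed the test (edgeR adjusted p = 0.0307). The call was lost without ASPS-A1 replicate 2 or 3 or control replicate 1 or 2 (adjusted p 0.0681 to 0.193), and with no filter on low counts (adjusted p = 0.0535). Library totals alone gave −0.079 (adjusted p = 0.138), whereas the length and GC offsets gave 0.26 (adjusted p = 4.59e-07). No direction is therefore given for Sirpa. The activating relatives Sirpb1a, Sirpb1b and Sirpb1c had no count in any library.

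Pilra, the inhibitory member of a pair of receptors that reads sialylated glycoproteins (chr5:137821952-137836281, minus strand), rose the most. Its values were 16.4, 18.7 and 12.4 CPM in control and 40.8, 45.9 and 39.5 CPM with ASPS-A1, with no overlap, and the log2 fold change was 1.41 ± 0.11 (SE, edgeR adjusted p = 7.38e-11). Its activating partner Pilrb1 rose as well, from 1.18 ± 0.512 to 3.62 ± 1.07 CPM (log2 fold change 1.61 ± 0.30 SE). Of the annotated exon length of Pilra, 15.1% overlaps Zcwpw1, and without the strand setting such reads are uncertain.

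Cd300a (chr11:114890041-114904654, plus strand), the phospholipid receptor, had 12.1, 11.5 and 11.4 CPM in control and 7.30, 9.67 and 8.95 CPM with ASPS-A1. All 3 ASPS-A1 libraries were lower, and it fell by 0.44 ± 0.13 on the log2 scale (SE, edgeR adjusted p = 0.00262), a call that ended with the length and GC offsets (−0.25, adjusted p = 0.0740). Pirb (chr7:3711409-3720391, minus strand), the MHC class I receptor, was barely present. Its counts were 27, 23 and 40 in control and 9, 17 and 18 with ASPS-A1, or about 1 CPM, and the log2 fold change of −0.58 ± 0.40 (SE) did not pass the test (edgeR adjusted p = 0.211). Of its 75-base windows, 30.1% occur in transcripts of other genes, with the largest share, 17.8%, in Gm14548. Pooled with Pira1, Pira2, Pira12, Pira13 and Lilra6, an alternative chosen after seeing the data, Pirb had −1.07 (adjusted p = 0.00785). Pira2 adds most to that difference, with 6, 18 and 25 counts in the control libraries and 0 in each ASPS-A1 library, at least 12.1-fold lower at a floor of 3 counts over the group. Of the Pira2 windows, 90.2% are shared with other genes, so these few counts cannot be assigned to 1 locus with certainty.

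Both phosphatases fell, by unequal amounts. Ptpn6 (chr6:124720707-124738714, minus strand), the main ITIM-docking phosphatase of blood cells, had 456, 449 and 461 CPM in control and 376, 427 and 405 CPM with ASPS-A1, without overlap. It fell by 0.18 ± 0.048 on the log2 scale (SE, edgeR adjusted p = 0.00130), and 6.96% of its exon length is shared with Gm20531. Ptpn11 (chr5:121130533-121191397, minus strand), a phosphatase found in most tissues that also promotes growth factor signalling, fell further. Its values were 99.7, 95.7 and 101 CPM in control against 65.7, 57.8 and 58.8 CPM, with a log2 fold change of −0.70 ± 0.059 (SE, edgeR adjusted p = 2.38e-14). With the length and GC offsets Ptpn11 had −0.43 and Ptpn6 −0.26, and both remained past the threshold.

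**Figure D2:**
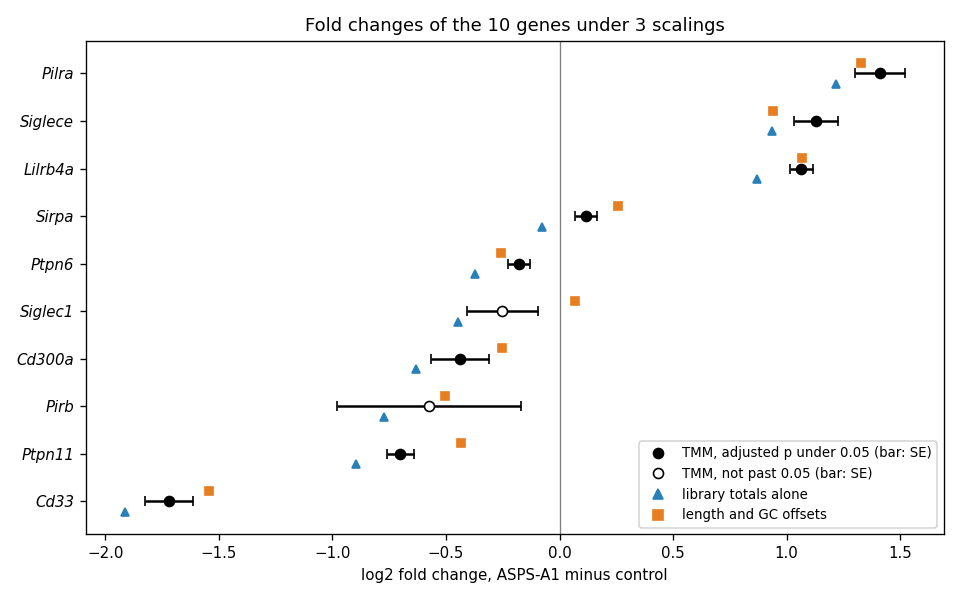
Log2 fold change of ASPS-A1 minus control for each of the 10 genes, with TMM scaling (circles, filled where the adjusted p was under 0.05, bars are SE), with library totals alone (triangles) and with the length and GC offsets (squares). Sirpa crosses zero with library totals and Siglec1 with the offsets, and the other 8 genes stay on 1 side under these 3 scalings.

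Per length of transcript, the levels fell into a steep order. In control the order by CPM per kilobase of the longest transcript was Ptpn6 (197 ± 2.72, SD, n = 3), Sirpa (53.0 ± 2.80), Lilrb4a (45.9 ± 2.83) and Ptpn11 (13.3 ± 0.396). Siglece (6.59 ± 0.145), Pilra (6.15 ± 1.25) and Cd33 (5.01 ± 0.618) followed, and neighbours among these 3 overlapped in their libraries. Cd300a (2.51), Siglec1 (1.16) and Pirb (0.296) came last, each clear of the next. With ASPS-A1 the order changed. Lilrb4a (96.1 ± 4.29 CPM per kilobase) stood above Sirpa (57.4 ± 1.65), Pilra (16.3 ± 1.30) and Siglece (14.4 ± 1.41) stood above Ptpn11 (8.17 ± 0.582), and Cd33 (1.52 ± 0.101) dropped to the level of Cd300a (1.86 ± 0.262), whose libraries it overlapped. Pilra and Siglece also overlapped each other there. The transcripts that these cells use were not measured, so levels between genes are approximate.

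Sirpa made up 43.0% to 44.6% of the summed receptor level per kilobase in the control libraries, and Lilrb4a 36.5% to 39.1%. With ASPS-A1, Lilrb4a made up 48.5% to 52.4% and Sirpa 29.8% to 31.2%. The other 6 receptors together kept a share of 17.3% to 20.3% against 16.8% to 19.3%. Ptpn6 supplied nearly all of the phosphatase level in both groups, 94.9% to 96.0% with ASPS-A1 and 93.6% to 93.8% in control.

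The ratio of a receptor to a phosphatase within 1 library does not depend on how libraries are scaled. For each 100 counts of Ptpn6 there were 38.2, 36.1 and 39.7 counts of Lilrb4a in the control libraries and 96.7, 80.9 and 93.2 with ASPS-A1, a log2 difference of 1.25. Against Ptpn11 the same receptor differed by 1.77. The log2 ratios of Siglece were higher by 1.31 to Ptpn6 and 1.83 to Ptpn11, and those of Pilra by 1.61 and 2.13. For Sirpa, whose own direction hung on the scaling, the ratio was higher by 0.30 to Ptpn6 and by 0.82 to Ptpn11. In each of these 8 ratios all 3 ASPS-A1 libraries lay above all 3 controls. The ratios share their denominators, and the falls of Ptpn6 (log2 fold change −0.18) and Ptpn11 (−0.70) add to each of them.

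Cd33 was the one receptor that lay lower against both phosphatases without overlap. For each 100 counts of Ptpn6 there were 5.61, 6.23 and 7.06 counts of Cd33 in control and 2.38, 1.89 and 2.25 with ASPS-A1, a log2 difference of −1.53, and the difference to Ptpn11 was −1.01. Cd300a was lower against Ptpn6 (−0.26, no overlap) and had 0.26 against Ptpn11, with overlap. No ratio was run with the length and GC offsets, with which Cd300a itself had −0.25, Ptpn6 −0.26 and Ptpn11 −0.43. The ratios may therefore depend on such trends. Siglec1 (−0.068 and 0.46) and Pirb (−0.41 and 0.11) overlapped between the groups against both. Of the 16 pairs, the 11 without overlap each reached p = 0.1 in a two-sided exact permutation test (n = 3 per group), which is the lower limit for a design of this size, and 0.146 after Benjamini-Hochberg adjustment over the 16. No ratio could therefore pass 0.05 in this test. By their own CPM, 68.5% of all genes tested did not overlap between the groups, and no such share was worked out for ratios. Summed per kilobase, the 8 receptors stood at 0.560 to 0.590 of the phosphatase level in the control libraries and at 0.980 to 1.09 with ASPS-A1. That sum does not describe each receptor. Lilrb4a went from 45.9 to 96.1 CPM per kilobase, whereas Cd33, Siglec1, Cd300a and Pirb had lower means with ASPS-A1.

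**Figure D3:**
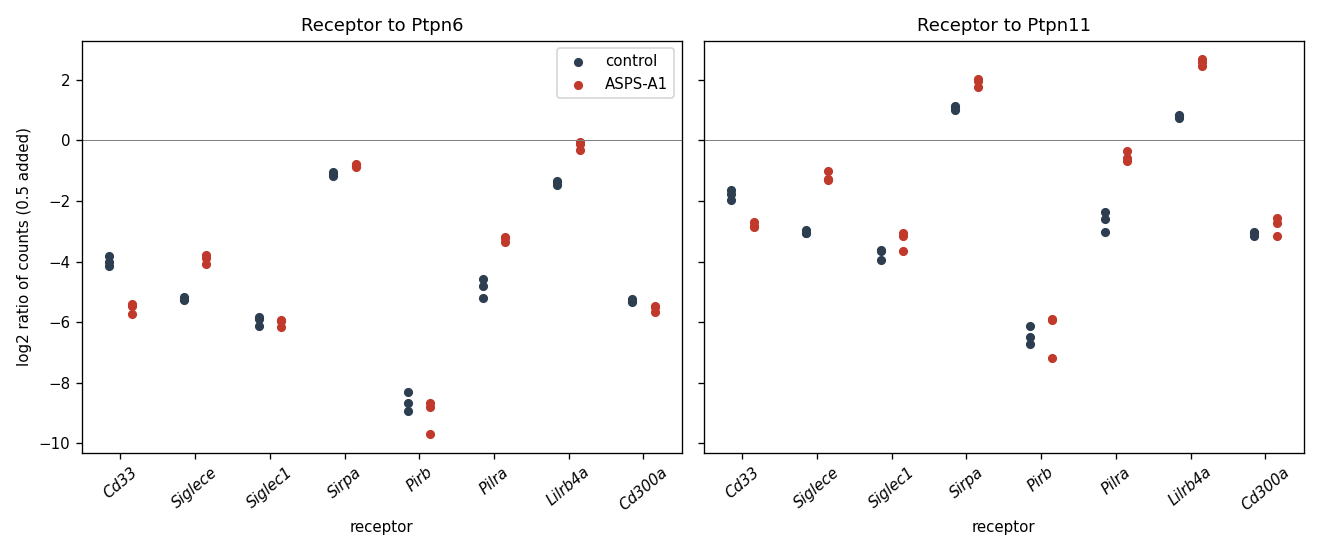
Log2 ratio of receptor counts to Ptpn6 counts (left) and to Ptpn11 counts (right) in each library, dark for control and red for ASPS-A1, with 0.5 added to each count. Siglece, Pilra, Lilrb4a and Sirpa sit higher with ASPS-A1 in both panels and Cd33 sits lower in both.

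Other inhibitory receptors also moved both ways, as did the table as a whole, where 32.4% of genes were called higher and 33.0% lower. Of 17 listed, 13 were abundant enough to test, 7 rose and 3 fell while 3 missed the threshold, with a median log2 fold change of 0.35. Milr1 (Allergin-1), an ITIM receptor of mast and myeloid cells, rose 3.28-fold from 39.6 ± 1.47 to 130.0 ± 5.32 CPM (SD, n = 3). The inhibitory Fc receptor Fcgr2b rose 3.27-fold and the semaphorin receptor Cd72, an ITIM protein best known from B cells, rose 2.03-fold. Havcr2, which encodes TIM-3, fell 2.99-fold from 25.2 to 8.42 CPM. The Cd200 receptor Cd200r1 fell by 1.03 on the log2 scale at about 1 to 2 CPM, and lost the call without control replicate 3 (−0.75, edgeR adjusted p = 0.0786). Vsir, which encodes VISTA, fell by 0.34, or by 0.098 with the length and GC offsets, which ended the call (adjusted p = 0.0891).

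Of the paired and activating relatives, the monocyte receptor Cd300e had the largest rise, 4.73-fold from 1.97 to 9.36 CPM. Of 30 symbols listed, 24 were in the table and 10 could be tested, of which 7 rose and 2 fell, with a median of 0.86, against 32.4% higher and 33.0% lower over all genes. The list was chosen with earlier results known and only its more abundant members could be tested. Lilrb4b and Pilrb1, described above, are among those that rose. Trem2, the lipid-sensing receptor of macrophages and microglia, fell by 0.81 ± 0.065 on the log2 scale (SE), and Cd300lb fell by 0.73. With the length and GC offsets 4 rose, against 7 without them. Lilrb4b could not be fitted, since no transcript length was found under that symbol. The rest of the drop came from relatives that were fitted and lost the call. These receptors signal through adaptors with activating motifs. Fcer1g, the Fc receptor γ chain, rose 1.86-fold to 485 ± 27.4 CPM, a log2 fold change of 0.90 that was 0.37 with the length and GC offsets. Tyrobp (DAP12) rose by 0.37 with TMM scaling but had −0.14 with the offsets (edgeR adjusted p = 0.00294), the adaptor Hcst (DAP10) had 0.25 (adjusted p = 0.290) and the kinase Syk, which binds the phosphorylated motifs, had 0.066 (adjusted p = 0.241). Of these 4 genes, 2 rose and 0 fell with TMM scaling, where 32.4% of all genes were called higher and 33.0% lower. With library totals alone 1 of them was called lower, and with the offsets also 1.

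Among the ligand transcripts tested, Cd47, the ligand of Sirpa, changed most. It rose from 129.5 ± 6.59 to 175 ± 7.70 CPM (SD, n = 3, log2 fold change 0.44). Cd47 had 0.24 with library totals and 0.60 with the length and GC offsets. The Pirb ligands of MHC class I had small values that depended on the scaling, with H2-K1 at 0.17 and B2m at 0.14 with TMM scaling, but −0.022 and −0.051 with library totals. With the offsets, H2-K1 had 0.0079 and B2m −0.40. Of 9 ligand genes listed, 5 could be tested, 4 rose and 0 fell, where 32.4% of all genes were called higher and 33.0% lower. Only 1 rose with library totals or with the offsets, and the offsets called 1 lower. Cd24a, Cd200, Npdc1 and Fn1 had too few counts to test.

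Enzymes that build, carry or remove sialic acid, the sugar that Siglecs and Pilra read, were called about as often as genes in general (65.3%). Of 31 listed, 22 could be tested, 7 rose and 7 fell while 8 missed the threshold, with a median log2 fold change of −0.067. With library totals 5 rose and 11 fell, a scaling with which 2529 of all genes were called higher and 5454 lower. St3gal6, which caps glycans with α2,3-linked sialic acid, rose 2.05-fold to 87.3 ± 3.74 CPM. Neu1, the lysosomal sialidase, rose 1.55-fold and Slc35a1, the Golgi carrier of CMP-sialic acid, rose by 0.60 on the log2 scale. Nanp, which frees sialic acid from its phosphate in synthesis, fell from 481 counts over the control libraries to 58 (log2 fold change −2.61 ± 0.24 SE). The polysialyltransferase St8sia4 fell by 0.78 and St3gal2 by 0.63.

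Of 26 kinases, phosphatases and scaffolds that act next to ITIMs, 23 could be tested, 10 rose and 10 fell while 3 missed the threshold (median −0.073), where 32.4% of all genes were called higher and 33.0% lower. Members of the Src family changed by unequal amounts. Lyn rose by 0.33 on the log2 scale, from 174.9 to 219.4 CPM. Fyn, at 47.3 and 51.8 CPM, had 0.13 (edgeR adjusted p = 0.0876) and missed the threshold. Lck rose by 1.22 at low levels, from 2.31 to 5.36 CPM, and Fgr rose from 12 counts over the control libraries to 82. Pag1, the adaptor that brings the Src-inhibiting kinase Csk to the membrane, fell by 0.72 ± 0.072 (SE). The ubiquitin ligase Cbl fell by 0.55, and the phosphatase Ptpre fell by 0.49, or by 0.24 with the offsets (edgeR adjusted p = 0.0877).

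**Figure D4:**
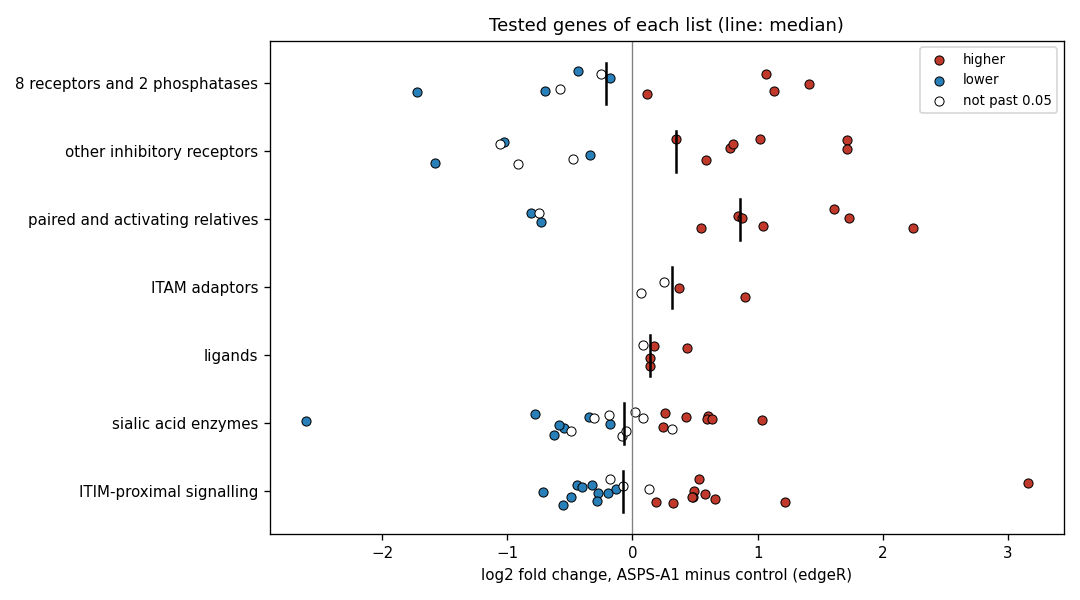
Log2 fold change (ASPS-A1 minus control, edgeR with TMM scaling) of each tested gene in the 8 receptors and 2 phosphatases and in the 6 further lists, with red points called higher, blue points called lower, white points not past the threshold, and a line at each list's median (vertical scatter has no meaning). Medians lie between −0.21 for the 10 genes and 0.86 for the paired and activating relatives.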

How the data were processed

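The deposited table gives whole-number counts per gene symbol, 1 column per library, with no normalization. The submitters' processing notes list HTSeq 0.9.1, HISAT2 2.1.0, fastp 0.22.0 and DESeq 1.38.3, with no roles. On the genome build, the strand setting and reads matching several genes, nothing is given in the sources used here. Genes were kept with filterByExpr (minimum count 10, minimum total 15), scaled with TMM and tested with edgeR 4.0.16 (quasi-likelihood, R 4.3.3, robust, group only, two-sided, Benjamini-Hochberg over 11686 genes, threshold 0.05). The SE is the absolute log2 fold change over the square root of F. No library was a copy of another of its group (chi-square over degrees of freedom 4.29 to 6.99). The script was tested on simulated data. Transcript lengths, GC content and positions came from GENCODE M21 (GRCm38), with lengths for 97.4% of tested genes.

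Members and lists were chosen with earlier results of these data known. The naming rule takes all 10 members and, per further list, up to 3 called genes in each direction with the largest change and at least 1 CPM. Some further genes, among them Lyn, Fyn, Hcst, Syk, Pira2 and other Siglecs, are given outside that rule. The result of 1 gene that the rule names and the sum of the B cell marker list are not reported here. Alternatives were other scalings, DESeq2 1.42.0, limma-voom (limma 3.58.1), filters, length and GC offsets (lowess span 0.3), a block and leaving out each library.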

Additional observations from a re-analysis of the deposited data

How the results depend on the processing

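Of the 10 genes, 6 kept direction and call under every alternative run (Cd33, Siglece, Pilra, Lilrb4a, Ptpn6 and Ptpn11). The same held for 22 of the 28 genes that the naming rule picks from the other lists under every alternative that could be fitted. Lilrb4b could not be fitted with the length and GC offsets for lack of a length, and Fgr and Pirb did not pass the filter of 1 CPM in 3 libraries. With library totals alone the median of all genes moved from −0.021 to −0.22, 2529 genes were higher and 5454 lower against 3783 and 3852, and 3 of the 10 genes were higher and 5 lower. That scaling turned Sirpa (−0.079), H2-K1 (−0.022) and B2m (−0.051), and left 1 ligand higher, 1 adaptor lower and 11 sialic acid genes lower. The length and GC offsets turned Siglec1 (0.068), Tyrobp (−0.14) and B2m (−0.40), and left 4 paired relatives higher (of a set without Lilrb4b), 1 adaptor lower, 1 ligand higher and 1 lower. Causes were not tested.

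Leaving out 1 library gave 3511 to 3679 genes higher and 3597 to 3707 lower. The ratio of Siglec1 to Ptpn6 turned to 0.0040 without ASPS-A1 replicate 1 and ranged from there to −0.16. The ratio of Pirb to Ptpn11 turned without ASPS-A1 replicate 2 or 3 or control replicate 2, with a range of −0.10 to 0.53. The library numbers share only a number, since deviations of same-numbered libraries had correlations of −0.032, 0.0072 and −0.0034. With the replicate block 3746 genes were higher and 3807 lower, and no call among the 10 genes changed. Depth limits Pirb and the relatives with under 50 counts.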
